A study of Homo sapiens with 6 samples.

Results

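The genes described here mostly encode the nuclear-encoded machinery of oxidative phosphorylation. They are the 96 of 20030 listed genes whose deposited KEGG annotation holds the term "Oxidative phosphorylation", once the subunits of the vacuolar proton pump and other lysosomal genes were set aside. The term itself was carried by 120 genes, of which 23 with a symbol starting with ATP6 and TCIRG1, the 1 other lysosomal gene, were left out. By complex, the 96 genes fell into 38 of complex I, 4 of complex II, 10 of complex III, 19 of complex IV and 15 of complex V, with 4 assembly factors of complex IV and 6 other genes beside them. The 6 other genes carry the term but are not subunits of these complexes, and they enter the counts and sums of the set. NDUFA4 and its paralog NDUFA4L2 were counted with complex IV. Mitochondrially encoded subunits were not analysed here.

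RNA from NCI-H929, a human multiple myeloma cell line, was sequenced in 6 libraries, and the study asked which transcripts change when IGF2BP1, a protein that binds m6A-modified mRNA, is depleted. The 3 IGF2BP1-KD libraries came from cells labelled with the genotype IGF2BP1 KD, and the 3 IGF2BP1-NC libraries from cells labelled with the genotype IGF2BP1 NC, the negative control. According to the study's methods the knockdown lines were stable transfectants made with a lentiviral shRNA vector driven by the U6 promoter and carrying puromycin resistance. The methods give a pair of shRNA targets, and the sources used here do not say which of them was in the sequenced cells, nor that the 3 libraries of a group were separate cultures, so p-values measure the spread between these libraries, which may be technical.

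Total counts lay between 16885449 and 18112179 per library, and a count of 0 allows up to 0.166 to 0.178 CPM (counts scaled to the library total). IGF2BP1 itself stood at 48.1, 43.7 and 49.1 FPKM (fragments scaled to gene length and library total) in IGF2BP1-NC libraries 1 to 3 and at 13.5, 12.9 and 12.8 in the IGF2BP1-KD libraries. The plasma cell identity of the label was not visible in the counts: of 13 plasma cell markers, 7 had at most 3 counts in every library, CD27 was at 0 throughout, and only 3 were above 1 CPM in every library. All 13 erythroid markers were above 1 CPM in every library, with summed levels of 8931 to 10196 FPKM in IGF2BP1-NC and 9148 to 10007 FPKM in IGF2BP1-KD. Of these, 6, among them GATA1, KLF1 and TAL1, were lower in IGF2BP1-KD and 0 were higher, where 14.5% of all tested genes were lower and 13.7% higher. Of the 5 plasma cell markers tested, 1 was higher and 0 were lower. The higher one was SLAMF7, with 4, 5 and 4 counts in IGF2BP1-NC and 52, 42 and 181 in IGF2BP1-KD (edgeR adjusted p = 0.00878). XBP1, at 36.5 to 83.5 FPKM over the 6 libraries, was neither. The part of these markers in the results that follow was not tested.

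Oxidative phosphorylation takes place at the inner mitochondrial membrane. Complex I and complex II pass electrons from NADH and succinate to coenzyme Q, complex III passes them on to cytochrome c and complex IV to oxygen, and complex V, the ATP synthase, uses the proton gradient built by complexes I, III and IV to make ATP. Most subunits are encoded in the nucleus by many small genes on different chromosomes, translated in the cytosol and imported, and they are assembled with mitochondrially encoded subunits by dedicated factors.

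In IGF2BP1-KD cells, several transcripts of complex I and of the ATP synthase fell by modest amounts, with log2 fold changes from -0.72 to -0.21. The ATP synthase genes ATP5MC1, ATP5F1D and ATP5F1E and the complex I genes NDUFA6 and NDUFS5 stood lowest relative to the control. A small group rose, led by NDUFA4L2, a paralog of NDUFA4 present at a very low level, and NDUFC2 of complex I. Of the 87 genes that passed the filter on low counts, 17 were lower and 4 were higher at a Benjamini-Hochberg adjusted p under 0.05 in edgeR's quasi-likelihood test. Over all 11994 tested genes 14.5% were lower and 13.7% were higher, against 19.5% and 4.598% of these 87. The set is highly expressed. Among 2459 other tested genes with a mean log2 CPM of 6.22 to 7.74, the middle range of the set, 18.1% were lower and 14.1% higher. The share of lower genes in the set was thus close to that of genes at its level. The median log2 fold change of those 2459 genes was -0.030.

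The remaining 66 tested genes did not pass the threshold, with log2 fold changes from -0.26 to 0.16 and standard errors from 0.055 to 0.20. Of them, 13 with a negative log2 fold change and 1 with a positive one (SDHD) had an adjusted p between 0.05 and 0.1. In sign, 73 of the 87 log2 fold changes were below 0 and 14 above 0, and their median was -0.13, where the median over all tested genes was -0.0048. For 40 of the 87 genes, CPM values did not overlap between groups (46.0%, against 45.6% of all tested genes), 34 of them lower in IGF2BP1-KD (39.1%, against 23.2%) and 6 higher, where 22.4% of all tested genes were higher without overlap. In bulk RNA, fewer cells of a type and less of a transcript per cell cannot be told apart. The other 9 genes did not pass that filter, among them NDUFC2-KCTD14, ATP12A and ATP4B with 0 counts in every library and ATP4A with 2 to 6.

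**Figure D1:**
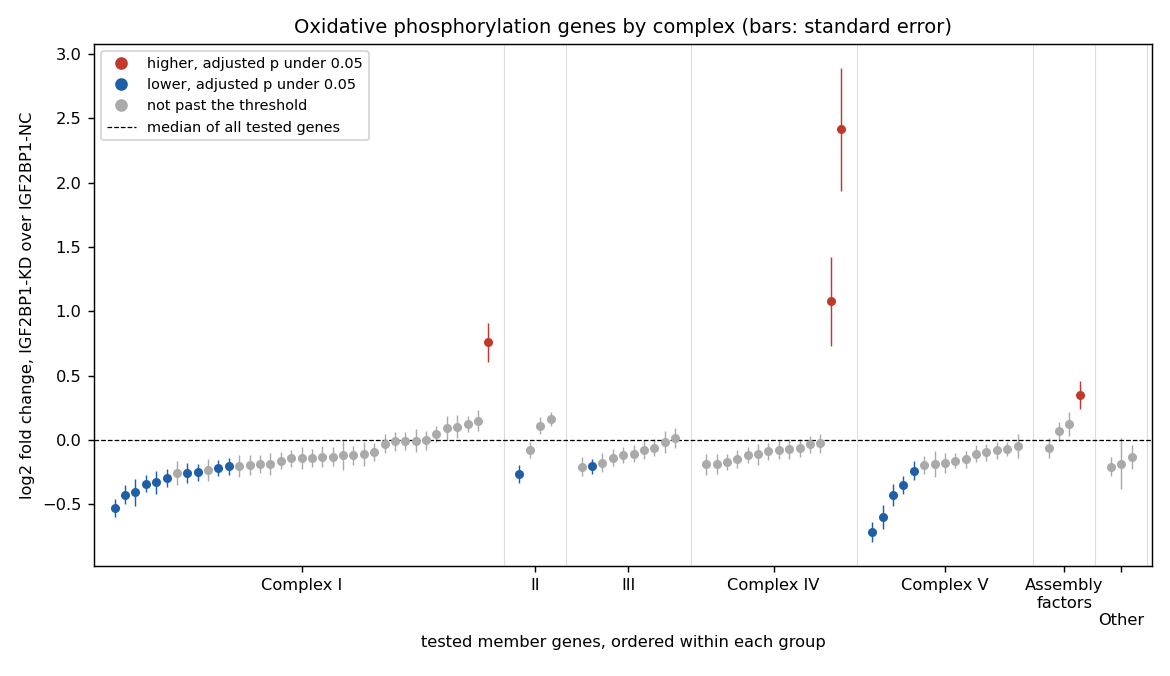
Fitted log2 fold change (IGF2BP1-KD over IGF2BP1-NC, vertical axis) of the 87 tested genes, grouped by complex and ordered within each group, with bars for the standard error; blue and red points passed an adjusted p under 0.05. Most points of complexes I, III, IV and V lie below the dashed line at the median of all tested genes, -0.0048, and the highest point is NDUFA4L2 at 2.42.

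The level of the whole set also differed among the control libraries. Summed over all 96 genes, the level was 12967, 14757 and 13827 FPKM in IGF2BP1-NC libraries 1 to 3 and 12486, 13010 and 12335 FPKM in IGF2BP1-KD libraries 1 to 3. The IGF2BP1-KD mean was 91.0% of the IGF2BP1-NC mean, but the groups overlapped, since IGF2BP1-NC library 1 lay below IGF2BP1-KD library 2. Library 1 was the lowest of the 3 controls for 59 of the 87 tested genes and library 2 the highest for 73.

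Relative to the control mean, the median gene stood at -0.090, 0.094 and 0.0045 in log2 CPM in the 3 control libraries and at -0.13, -0.074 and -0.17 in the knockdown libraries. The tested genes were short, with a median length of 1219 bases against 4032 for the other tested genes. Among 1961 other tested genes with lengths of 708 to 2087 bases, the middle range of the set, the corresponding medians were -0.050, 0.061 and -0.0052 in the controls and 0.0016, 0.0043 and -0.019 in the knockdown. Short genes outside the set thus ranked the 3 control libraries in the same order, and their median log2 fold change was -0.010. What part library composition has in the lower values was not tested. Leaving out IGF2BP1-NC library 1 raised the number of lower genes to 42 of 87, and leaving out IGF2BP1-NC library 2 reduced it to 8. It was 11 without IGF2BP1-KD library 1 and 10 without IGF2BP1-KD library 3. Of all genes tested in these fits, 16.9%, 10.2%, 9.91% and 10.3% were lower, in the same order.

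**Figure D2:**
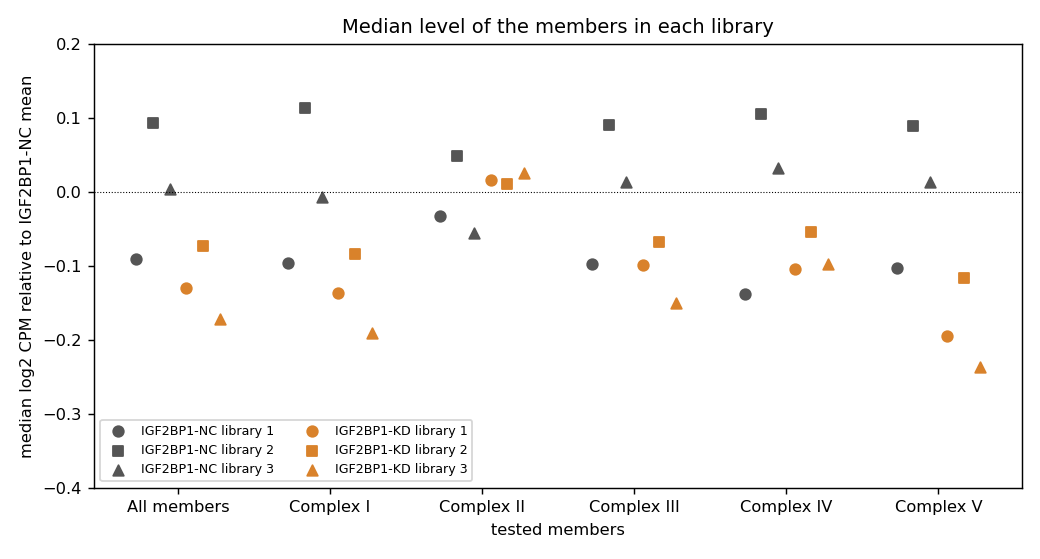
Median log2 CPM relative to the IGF2BP1-NC mean (vertical axis) of the tested genes in each library, for the whole set and for complexes I to V; each symbol is 1 library. IGF2BP1-NC library 1 lies near the 3 IGF2BP1-KD libraries for the whole set, at -0.090, and IGF2BP1-NC library 2 is the highest at 0.094. For complex II the IGF2BP1-KD libraries lie between 0.011 and 0.026, inside the range of the controls.

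Complex V was the complex with the lowest summed level relative to its control. The synthase consists of a catalytic head, a rotating stalk, a ring of c subunits in the membrane and a peripheral stalk that holds the head still. Of its 15 genes, all of them tested, 5 were lower (33.3%, against 14.5% of all tested genes). At the level of the set, 18.1% of the other tested genes were lower. All 15 had a log2 fold change below 0, with a median of -0.18. Their summed level was 3626, 4060 and 3828 FPKM in the 3 IGF2BP1-NC libraries and 3317, 3516 and 3300 FPKM in the IGF2BP1-KD libraries. The IGF2BP1-KD mean was 88.0% of the control mean, and every knockdown library lay below every control library. Without IGF2BP1-NC library 1, 10 of the 15 were lower, where 16.9% of all genes tested in that fit were lower. Without any other library 4 were, where 9.44% to 11.8% of all genes tested in those fits were lower.

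ATP5MC1 encodes subunit c, the proton-carrying subunit of the ring, on chr17:48892765-48895871 (GRCh38, GENCODE release 44, plus strand). Its level was 131.6, 143.0 and 134.5 FPKM in IGF2BP1-NC and 86.6, 87.6 and 76.4 FPKM in IGF2BP1-KD. Every knockdown library lay well below every control library. The log2 fold change was -0.72 (SE 0.077, adjusted p = 0.000130), and the fitted level decreased by 39.2%. The annotation holds 8 pseudogenes named after ATP5MC1, so reads shared with these copies have an uncertain assignment.

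The same mature subunit c is made from ATP5MC2 and ATP5MC3, which differ from ATP5MC1 in the import sequence that is cleaved off. ATP5MC2 stood at 64.0 ± 2.97 FPKM (SD, n = 3) in IGF2BP1-NC and 58.1 ± 3.05 FPKM in IGF2BP1-KD, and ATP5MC3 at 154 ± 8.89 and 135 ± 6.88 FPKM, with adjusted p-values of 0.108 and 0.0531. The share of ATP5MC1 in the summed FPKM of the 3 genes was 39.1%, 38.6% and 37.8% in IGF2BP1-NC and 31.1%, 30.05% and 29.3% in IGF2BP1-KD. These shares did not overlap between the groups (two-sided exact permutation p = 0.1, the smallest that 3 libraries against 3 allow). The summed level of the 3 genes was 354 ± 16.96 FPKM in IGF2BP1-NC and 277 ± 15.4 FPKM in IGF2BP1-KD. Shares and sums in FPKM depend on the gene lengths used, 647 bases for ATP5MC1, 3894 for ATP5MC2 and 3676 for ATP5MC3. In counts, ATP5MC1 had 1474, 1613 and 1576 in IGF2BP1-NC and 1003, 957 and 861 in IGF2BP1-KD. ATP5MC3 had 9154, 10275 and 10500 counts in IGF2BP1-NC and 8785, 8874 and 8294 in IGF2BP1-KD.

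**Figure D3:**
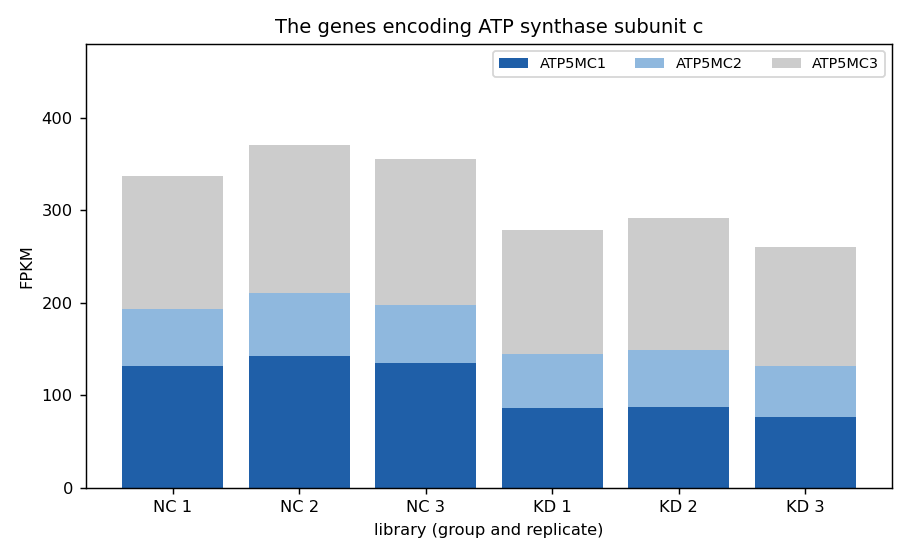
Summed FPKM (vertical axis, starting at 0) of the 3 genes that encode subunit c of the ATP synthase, in each of the 6 libraries; the coloured segments are ATP5MC1, ATP5MC2 and ATP5MC3. The ATP5MC1 segment is 131.6 to 143.0 FPKM in IGF2BP1-NC and 76.4 to 87.6 FPKM in IGF2BP1-KD. It carries the larger part of the lower total on the FPKM scale, which divides by gene length. In counts ATP5MC3 is the largest of the 3 genes.

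ATP5F1D and ATP5F1E encode the delta and epsilon subunits, small parts of the central stalk. The level of ATP5F1D was 129.8, 138.9 and 122.5 FPKM in IGF2BP1-NC and 94.4, 92.0 and 74.2 FPKM in IGF2BP1-KD (log2 fold change -0.60, SE 0.093, adjusted p = 0.00132). For ATP5F1E the values were 497.7, 616.1 and 560.7 FPKM in IGF2BP1-NC and 395.3, 434.3 and 425.6 FPKM in IGF2BP1-KD (log2 fold change -0.43, SE 0.083, adjusted p = 0.00379). Neither gene showed overlap between the groups, and IGF2BP1-KD library 3 was the lowest of all for ATP5F1D. ATP5F1C, the gamma subunit of the same stalk, had 211 ± 11.5 and 201 ± 11.2 FPKM and an adjusted p of 0.405.

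In the peripheral stalk, ATP5PF (coupling factor 6) stood at 57.0, 62.5 and 58.5 FPKM in IGF2BP1-NC and 43.8, 48.5 and 48.4 FPKM in IGF2BP1-KD, a log2 fold change of -0.35 (SE 0.067, adjusted p = 0.00329). ATP5MF, a membrane subunit next to the c ring, had a log2 fold change of -0.24 (adjusted p = 0.0314), a call that was lost on leaving out any library but IGF2BP1-NC library 1. Its exons overlap those of PTCD1 and a readthrough gene on the same strand. The catalytic beta subunit ATP5F1B, the most abundant of all 96 genes, stood at 851 ± 5.29 FPKM in IGF2BP1-NC and 815 ± 18.3 FPKM in IGF2BP1-KD and did not pass the test (log2 fold change -0.074, adjusted p = 0.346). ATP5F1A, the alpha subunit, had a log2 fold change of -0.16 with an adjusted p of 0.0562.

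Complex I held the largest number of lower genes. Of its 37 tested genes, 10 were lower (27.0%, against 14.5% of all tested genes) and 1 was higher (2.70%, against 13.7%). Of the other tested genes at the level of the set, 18.1% were lower and 14.1% higher. The median log2 fold change was -0.14. The summed level was 3829, 4439 and 4088 FPKM in IGF2BP1-NC and 3699, 3849 and 3626 FPKM in IGF2BP1-KD. IGF2BP1-KD library 2 was above IGF2BP1-NC library 1, so the sums overlapped. The number of lower genes was 20 without IGF2BP1-NC library 1, 4 without IGF2BP1-NC library 2, 6 without IGF2BP1-KD library 1 and 5 without IGF2BP1-KD library 3. The shares of lower genes among all genes tested in these fits were 16.9%, 10.2%, 9.91% and 10.3%, in that order.

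NDUFA6, an accessory subunit of the LYR protein family, showed the largest fall in complex I. Its level was 60.5, 67.5 and 65.9 FPKM in IGF2BP1-NC and 44.2, 46.7 and 44.4 FPKM in IGF2BP1-KD (log2 fold change -0.53, SE 0.072, adjusted p = 0.000481). NDUFS5, the most abundant complex I gene, stood at 441.5, 534.2 and 467.4 FPKM in IGF2BP1-NC and at 356.4, 365.5 and 361.2 FPKM in IGF2BP1-KD (log2 fold change -0.43, SE 0.076, adjusted p = 0.00227). For both genes the knockdown libraries lay close together and below all controls. NDUFA3, a small membrane-arm subunit, had 46.2, 55.6 and 42.2 FPKM in IGF2BP1-NC and 37.2, 37.7 and 34.6 FPKM in IGF2BP1-KD, with a log2 fold change of -0.41 (SE 0.11, adjusted p = 0.0152). Its controls were more spread, and the call was lost without IGF2BP1-NC library 2 or IGF2BP1-KD library 3.

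Among the catalytic subunits of complex I, NDUFV1, which binds NADH and FMN, stood at 192.8, 199.0 and 179.1 FPKM in IGF2BP1-NC and 154.8, 156.2 and 143.4 FPKM in IGF2BP1-KD (log2 fold change -0.34, SE 0.064, adjusted p = 0.00315). All knockdown values lay below all control values. NDUFS7, which lies near the coenzyme Q site, had a log2 fold change of -0.22 (adjusted p = 0.0223). Its call was lost without IGF2BP1-NC library 2 or 3 and without IGF2BP1-KD library 1 or 3. By contrast NDUFV2, the partner of NDUFV1, had 144 ± 10.98 and 145 ± 4.598 FPKM, and NDUFS3 had 96.0 ± 12.0 and 103 ± 3.40 FPKM, with adjusted p-values of 0.934 and 0.476. A list of 14 catalytic core subunits of complexes I, II, III and V, all of them in the set, had a median log2 fold change of -0.13. It held 4 lower, among them NDUFV1 and SDHA, and 0 higher, where 14.5% of all tested genes were lower.

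Other lower genes of complex I were NDUFS6 (-0.33, adjusted p = 0.0172), NDUFA5 (-0.30, adjusted p = 0.0102), NDUFA7 (-0.26, adjusted p = 0.0322) and NDUFA9 (-0.21, adjusted p = 0.0411) on the log2 scale. Of these, NDUFA5 kept its call in all 6 fits that each left out a library. The call of NDUFS6 was kept without IGF2BP1-NC library 1 or IGF2BP1-KD library 2, that of NDUFA7 without IGF2BP1-NC library 1 or 3, and that of NDUFA9 without IGF2BP1-NC library 1, and each was lost in the remaining fits.

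NDUFC2, a membrane-arm subunit, was the gene of complex I that rose. Its counts were 185, 204 and 174 in IGF2BP1-NC and 271, 287 and 391 in IGF2BP1-KD, or 4.20 ± 0.413 and 7.17 ± 1.496 FPKM, the lowest level among the tested genes of the complex. All knockdown counts lay above all control counts, with library 3 the highest (log2 fold change 0.76, SE 0.15, adjusted p = 0.00425). NDUFC2 shares exons on the same strand with the readthrough gene NDUFC2-KCTD14, which had 0 counts in every library, so reads common to both have an uncertain assignment.

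**Figure D4:**
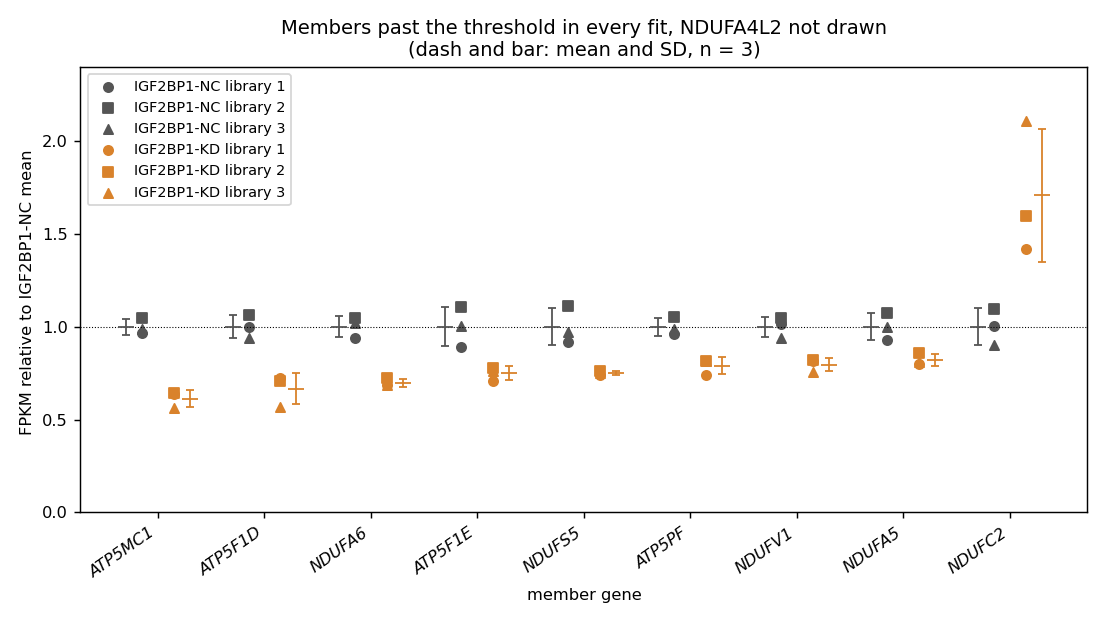
FPKM relative to the IGF2BP1-NC mean (vertical axis) in each library for 9 of the 10 genes that passed the threshold in every fit, with NDUFA4L2 not drawn; symbols are libraries, and the dash and bar give the mean and SD (n = 3). In the 8 genes that fell, all IGF2BP1-KD points lie below all IGF2BP1-NC points, and NDUFC2 shows the opposite order.

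Complex II, which is also the succinate dehydrogenase of the citric acid cycle, had a median close to that of all tested genes. Its 4 genes had summed levels of 308, 327 and 295 FPKM in IGF2BP1-NC and 320, 332 and 327 FPKM in IGF2BP1-KD, and these overlapped. SDHA, the flavoprotein that oxidizes succinate, stood at 41.8, 43.0 and 39.7 FPKM in IGF2BP1-NC and 36.7, 35.9 and 31.8 FPKM in IGF2BP1-KD. The groups did not overlap, and the log2 fold change was -0.26 (SE 0.069, adjusted p = 0.0155), a call lost without IGF2BP1-NC library 2 or IGF2BP1-KD library 3. The iron-sulfur subunit SDHB (0.11, adjusted p = 0.256) and the membrane anchors SDHC (-0.078, adjusted p = 0.389) and SDHD (0.16, adjusted p = 0.0553) did not pass the test on the log2 scale. The median of the 4 was 0.017. The annotation holds 4 pseudogenes named after SDHA and an overlapping gene on its strand.

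In complex III, the cytochrome bc1 complex, 1 of 10 genes was lower and 0 were higher, with a median log2 fold change of -0.11. Over all tested genes the shares were 14.5% lower and 13.7% higher. The summed level was 1528, 1691 and 1591 FPKM in IGF2BP1-NC and 1462, 1522 and 1456 FPKM in IGF2BP1-KD with a mean at 92.3% of the control. The sums did not overlap, although IGF2BP1-NC library 1 and IGF2BP1-KD library 2 were close. The gene that passed was UQCRC2, a core protein of the matrix side, at 135.2, 127.8 and 124.9 FPKM in IGF2BP1-NC and 108.8, 112.4 and 118.2 FPKM in IGF2BP1-KD (log2 fold change -0.20, SE 0.058, adjusted p = 0.0235). Its call was lost without IGF2BP1-NC library 2 and without IGF2BP1-KD library 1 or 2. Without IGF2BP1-NC library 1, 5 genes of the complex were lower, where 16.9% of all genes tested in that fit were lower. UQCRH, the hinge protein and the most abundant transcript of the complex, had 730 ± 45.7 and 668 ± 23.5 FPKM and an adjusted p of 0.141. UQCRHL is a close copy of UQCRH, and reads may be split between them.

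Of the 14 tested genes of complex IV, 0 were lower and 2 higher (14.3%) by edgeR, and the median log2 fold change was -0.083. Over all tested genes 14.5% were lower and 13.7% higher. DESeq2 also found 0 lower. In the edgeR fit 3 had an unadjusted p under 0.05 in this direction. Without IGF2BP1-NC library 1, 5 were lower by edgeR, where 16.9% of all genes tested in that fit were lower. The sums were 3349, 3892 and 3690 FPKM in IGF2BP1-NC and 3375, 3462 and 3323 FPKM in IGF2BP1-KD, with IGF2BP1-NC library 1 below IGF2BP1-KD libraries 1 and 2. COX7C, its most abundant transcript, had 508 ± 25.3 FPKM in IGF2BP1-NC and 454 ± 13.9 FPKM in IGF2BP1-KD (log2 fold change -0.17, adjusted p = 0.0600). The ubiquitous forms of the subunits that come in several isoforms, COX4I1, COX6A1, COX6B1, COX7A2, COX7A2L, COX7B, COX8A and NDUFA4, had log2 fold changes between -0.19 (COX8A, adjusted p = 0.0921) and -0.036 (COX7A2L).

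Of the tissue-restricted isoforms, those of muscle, lung and testis were near or below detection. COX4I2, COX6A2, COX7A1 and COX8C were at no more than 3 counts in every library, and COX6B2 had 9, 6 and 3 counts in IGF2BP1-NC and 2, 6 and 6 in IGF2BP1-KD. Both genes of complex IV that rose were likewise at a low level. NDUFA4L2, a paralog of NDUFA4, had 16, 4 and 3 counts in IGF2BP1-NC and 41, 33 and 50 in IGF2BP1-KD. Every knockdown library was above every control, and control library 1 was well above the other controls. The log2 fold change was 2.42 (SE 0.48, adjusted p = 0.00429) and lay between 2.03 and 3.52 when a library was left out. At 0.370 ± 0.354 FPKM in IGF2BP1-NC and 2.00 ± 0.390 FPKM in IGF2BP1-KD it lay far below NDUFA4 (102 ± 7.87 and 97.3 ± 4.596 FPKM). NDUFA4L2 made up 0.821%, 0.176% and 0.137% of the summed FPKM of the pair in IGF2BP1-NC and 2.02%, 1.58% and 2.46% in IGF2BP1-KD.

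COX7B2, the testis form of COX7B, had 7, 15 and 14 counts in IGF2BP1-NC and 25, 27 and 24 in IGF2BP1-KD. The groups did not overlap, and the log2 fold change was 1.08 (SE 0.35, adjusted p = 0.0378), a call that was lost in each of the 6 fits without a library. Its share of the summed FPKM with COX7B was 0.0916%, 0.168% and 0.162% in IGF2BP1-NC and 0.340%, 0.362% and 0.304% in IGF2BP1-KD.

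Among the 4 assembly factors of complex IV that carry the KEGG term, COX17, the copper chaperone that delivers copper to the enzyme, was higher. Its level was 42.2, 41.5 and 38.4 FPKM in IGF2BP1-NC and 47.8, 49.3 and 59.5 FPKM in IGF2BP1-KD (log2 fold change 0.35, SE 0.11, adjusted p = 0.0322). Library 3 was the highest of the knockdown libraries, the call was kept only without IGF2BP1-NC library 1 or IGF2BP1-KD library 1, and exons of POPDC2 overlap on the same strand. COX10 and COX15, which make heme A, and COX11, which inserts copper, did not pass the test, at log2 fold changes of 0.12, 0.067 and -0.064. Of the 6 other genes, the pyrophosphatase PPA1 was the most abundant, at 253 ± 12.9 FPKM in IGF2BP1-NC and 220 ± 16.3 FPKM in IGF2BP1-KD, with a log2 fold change of -0.21 and an adjusted p of 0.0511.

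Of the 21 genes past the threshold, 10 passed it in every fit without a library and in every alternative fit that tested them, NDUFA4L2 being untested where at least 10 counts in every library were required. They were ATP5MC1, ATP5F1D, ATP5F1E, ATP5PF, NDUFA5, NDUFA6, NDUFS5 and NDUFV1, which were lower, and NDUFC2 and NDUFA4L2, which were higher. Of these 10, ATP5F1D, NDUFA6, NDUFV1 and NDUFA4L2 have no named pseudogene and share no exon with another coding gene on their strand. Over the whole set, 51 of the 96 genes have a named pseudogene, up to 17 for COX6C, and 21 overlap an exon of another coding gene on the same strand. The 96 genes lie on 23 chromosomes.

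Promoters of the set were searched for a few fixed motifs as a description, and shared regulation was not tested. RefSeq promoter windows (GRCh38.p14, 250 bases before to 50 after the gene start) matched 78 of the 96 genes, and 27305 windows served as the background. Searched on both strands, the YY1 motif AAGATGGC was present in 12 of the 78 windows (15.4%, against 3.03% of all windows). The ETS motif CCGGAAG, bound by GABP, was in 22 (28.2%, against 10.7%), the palindromic NRF1 motif in 17 (21.8%, against 6.28%), and the estrogen-related receptor motif AAGGTCA in 9 (11.5%, against 3.97%). NRF1, GABP, YY1 and the estrogen-related receptors are known regulators of respiratory chain genes.

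Of the 17 lower genes 13 had a window, and the YY1 motif was in 6 of these 13 and in 6 of the 58 windows of the other tested genes. The ETS motif was in 1 of the 13 and in 21 of the 58, the NRF1 motif in 3 of the 13 and in 13 of the 58, and the estrogen-related receptor motif in 3 of the 13 and in 6 of the 58. The split into lower and other genes rests on calls in these same data, and differences between these windows were not tested. The calls of NDUFA7, NDUFA9 and NDUFS7 were lost in most fits without a library. The YY1 motif was picked for display after these numbers were seen, as the one most often found in the windows of the lower genes. Its 6 matches there are shown with the bases around them, with the matching letters in capitals.
NDUFA3, chr19:54102865-54102894, plus strand: ccgcggagacaAAGATGGCtgcgagtaagt
NDUFA6, chr22:42090729-42090758, minus strand: gatgctttggcAAGATGGCggggagcggcg
NDUFA7, chr19:8321343-8321372, minus strand: atcgcggacggAAGATGGCgtccgccaccc
NDUFA9, chr12:4649113-4649142, plus strand: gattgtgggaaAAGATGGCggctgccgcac
NDUFS7, chr19:1383913-1383942, plus strand: aggccgaggccAAGATGGCggtgctgtcag
ATP5PF, chr21:25735093-25735122, minus strand: taggcgaagaaAAGATGGCggaggctgtgc
Coordinates are those of GRCh38.p14, and each sequence is written 5′ to 3′ on the strand of its gene. The motif contains the letters of a start codon, and in 10 of the 12 windows of the set with a match it lay after the gene start, so some of these letters may be the beginning of the coding sequence. The windows of ATP5MC1, ATP5F1E, NDUFV1 and UQCRC2, which also fell, held a match to none of the 4 motifs. A match is a description of the letters and not of a bound site.

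Among ESRRA, YY1, NRF1 and GABPA, genes for factors that bind such motifs, only ESRRA passed the threshold. Whether these factors act on the set in these cells was not tested. ESRRA, the estrogen-related receptor alpha, stood between 27.7 and 30.5 FPKM in the 3 IGF2BP1-NC libraries and between 21.8 and 23.1 FPKM in the 3 IGF2BP1-KD libraries (log2 fold change -0.37, SE 0.064, adjusted p = 0.00181). The groups did not overlap, and the call was kept in all 6 fits without a library. YY1 (0.13, adjusted p = 0.104), NRF1 (0.20, adjusted p = 0.146), GABPA (-0.11, adjusted p = 0.318) and TFAM (-0.0027) did not pass the test on the log2 scale, and PPARGC1A had at most 2 counts in any library. A list of 24 genes of mitochondrial biogenesis and mitochondrial DNA expression had a median log2 fold change of -0.061. In it, 4 of the 23 tested were lower (ESRRA, POLRMT, MTERF2 and TWNK) and 1 was higher (POLG). The lower share was near the 14.5% of all tested genes, of which 13.7% were higher.

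Among 50 tested assembly factors of the respiratory chain, of which 4 are in the set, 11 were lower and 2 higher (NUBPL and COX17). Their median was -0.080, and 14.5% of all tested genes were lower and 13.7% higher. Lowest were NDUFAF2, which acts late in complex I assembly, at 38.6 to 41.3 FPKM in IGF2BP1-NC and 24.4 to 26.9 FPKM in IGF2BP1-KD (log2 fold change -0.66, adjusted p = 0.000478), and ECSIT, an early complex I factor (-0.55, adjusted p = 0.000313). Both had non-overlapping groups and kept their calls in all 6 fits without a library. LRPPRC, which stabilizes mitochondrial mRNAs, was also lower (-0.28, adjusted p = 0.00397).

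Of the 18 genes of pyruvate dehydrogenase and the citric acid cycle, which supply NADH and succinate to the chain, 6 were lower and 1 was higher. Their median was -0.11, and the shares over all tested genes were 14.5% lower and 13.7% higher. The lower ones were SUCLG2 (-0.53, adjusted p = 0.00171), DLST (-0.45, adjusted p = 0.000632), MDH2 (-0.32), PDHB (-0.32), FH (-0.23) and DLD (-0.20), and the higher one was IDH3A (0.29, adjusted p = 0.00772). Of 21 tested genes for coenzyme Q synthesis, cytochrome c and inner or outer membrane carriers, 2 were lower (COQ2 and SLC25A3) and 3 higher (COQ4, SLC25A4 and VDAC3), with a median of 0.0098. SLC25A3 carries the phosphate and SLC25A4 the nucleotides that the ATP synthase uses and makes.

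**Figure D5:**
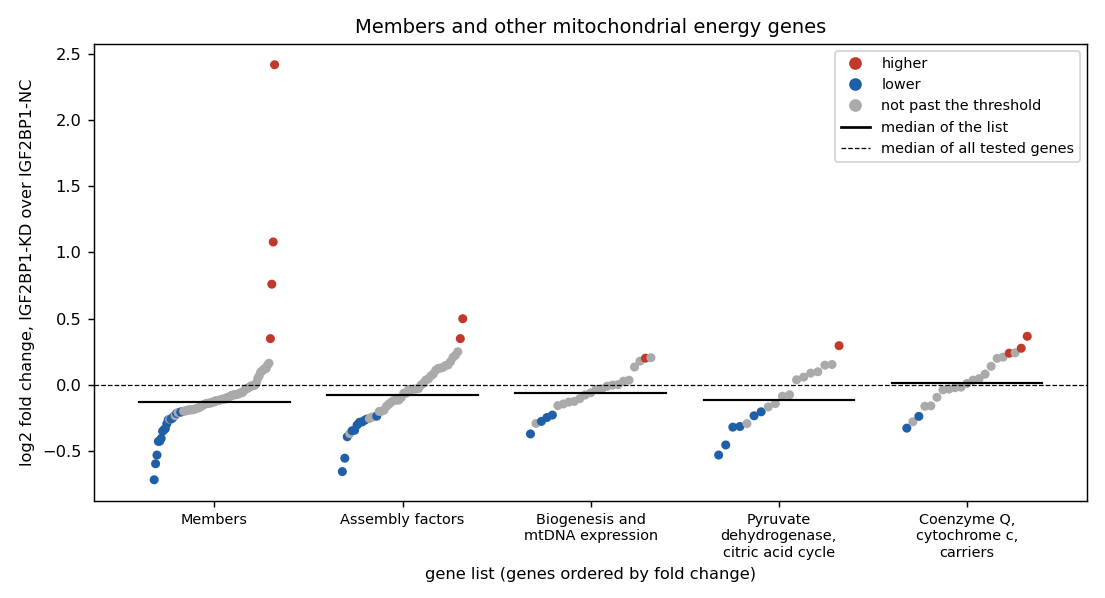
Fitted log2 fold change (IGF2BP1-KD over IGF2BP1-NC, vertical axis) of each tested gene in the set ("Members") and in 4 lists of related mitochondrial genes, ordered within each list; the solid line is the list's median, and coloured points passed an adjusted p under 0.05. The medians are -0.13 for the set, -0.080, -0.061 and -0.11 for assembly factors, biogenesis and the citric acid cycle, and 0.0098 for coenzyme Q, cytochrome c and carriers.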

How the data were processed

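RNA-seq libraries were made with a stranded mRNA kit. Per the labels and the study's methods, the authors used Trimmomatic for trimming and HISAT2 for mapping to GRCh38, and deposited raw counts per gene from HTSeq-count. FPKM values, which the authors describe as calculated with Cufflinks, were deposited beside them and equal counts over gene length and library total in the 84 genes of the set that were checked. Versions, annotation release and the strand setting of the counting are not given in the sources used here.

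Counts were tested with edgeR 4.0.16 in R 4.3.3 (TMM, filterByExpr, glmQLFit with robust estimation, glmQLFTest, two-sided, Benjamini-Hochberg over all 11994 genes tested), and levels are deposited FPKM with SD over 3 libraries. Called genes had an adjusted p under 0.05. Alternatives used DESeq2 1.42.0 and limma 3.58.1 (on log2(FPKM + 1), mean FPKM 1 or more). The procedure was tested on simulated data with changes of 1 on the log2 scale in either direction. The lower genes of the set changed by less, so that test does not cover calls of their size. Python 3.11.15, pandas 2.3.3, scipy 1.17.1 and matplotlib 3.10.9 made the tables and figures. Gene positions came from GENCODE release 44. The set and the gene lists were chosen with earlier results of these data known. Genes were named by a rule: per complex, the 3 largest rises and falls past the threshold at log2 CPM 3 or more, the most abundant, all succinate dehydrogenase genes, isoforms, changes beyond 1 on the log2 scale and the most counted untested gene. Other genes were named after their values were seen. A few genes of the set and lists enter the counts but are not reported here by name.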

Additional observations from a re-analysis of the deposited data

How the results depend on the processing

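The count of lower genes, 17, stayed between 14 and 21 under DESeq2, other scalings, other filters, limma-voom, limma on FPKM and the replicate block, and 14 to 17 of the 17 genes were shared in each of these fits. With single libraries left out it ranged from 8 to 42. It was 42 without IGF2BP1-NC library 1, 8 without IGF2BP1-NC library 2, 11 without IGF2BP1-KD library 1 and 10 without IGF2BP1-KD library 3. The share of lower genes among all tested genes also moved, to 16.9%, 10.2%, 9.91% and 10.3% in these fits. The count of higher genes, 4, ranged from 2 to 4 with single libraries left out and was 2 with the replicate number as a block. Deviations of libraries with the same number correlated at -0.052, 0.036 and -0.11, so the numbers do not pair the libraries. With the block 2 were higher and 14 lower. The median log2 fold change of the set stayed below 0 throughout, from -0.16 without IGF2BP1-NC library 1 to -0.083 without IGF2BP1-NC library 2. That of complex II ranged from -0.012 to 0.059 with single libraries left out. The causes of these shifts were not tested. An alternative that leaves mitochondrially encoded genes out of the scaling was not run, as none of those genes is among the 20030 analysed here. With 3 libraries a group, calls near the threshold and genes of a few counts, such as COX7B2, are the least certain.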
